A study of Mus musculus with 6 samples.

Results

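The polyamine genes described here are 10 genes of ornithine decarboxylase, its antizymes and antizyme inhibitor, and the synthesis and breakdown of spermidine and spermine. They were taken by symbol, each through its brightest probe set carrying exactly 1 gene symbol, and 8 of the 10 were measured in this way, among 22180 genes in all. All 8 passed the filter on dim genes and were among the 14787 genes tested. Amd1 (gene ID 11702), which decarboxylates S-adenosylmethionine, had no probe set listed. Sms (gene ID 20603), the spermine synthase, was listed only on a probe set shared with Sms-ps, so both are not analysed here.

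RNA was measured on 1-colour whole-transcript arrays, 3 of CD4 T cells in low arginine medium and 3 of CD4 T cells in control medium. The cells came from OT II transgenic mice, whose T cell receptor recognises an ovalbumin peptide, and the description names 6 mice of 12 to 16 weeks of age. In both groups purified CD4 T cells were cultured for 72 hours with antigen-presenting cells and the peptide, and CD4 cells were purified again before lysis. The low arginine medium was RPMI-1640 with 10% dialyzed serum and 1% of the usual arginine (12 uM), and the control medium was complete RPMI-1640 with 10% dialyzed serum. The labels call the arrays biological replicates and do not say which animals each one holds, so the p-values measure the spread between these arrays.

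Polyamines are small positively charged molecules that bind RNA and DNA and that dividing lymphocytes make in large amounts. Arginase turns arginine into ornithine, ornithine decarboxylase turns that into putrescine, and spermidine synthase and spermine synthase add further units taken from decarboxylated S-adenosylmethionine. Antizymes bind ornithine decarboxylase and send it to the proteasome, their full-length protein is made by a ribosomal frameshift that polyamines promote, and the antizyme inhibitor captures antizyme. Spermidine also supplies the hypusine residue of the translation factor eIF5A. The arrays measure RNA and give no polyamine, protein or frameshift level.

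The stretches upstream of the antizyme genes Oaz1 and Oaz2 are shown because these were the measured polyamine genes whose groups did not overlap. Of all genes tested, 32.2% had groups without overlap. Both stretches are the 250 bases before the start of the RefSeq transcript, read 5′ to 3′ on the plus strand of GRCm38.p6. Oaz1 lies at chr10:80826406-80826655 and Oaz2 at chr9:65676298-65676547. Capitals mark matches to CCAAT or to GGGCGG on either strand.
Oaz1: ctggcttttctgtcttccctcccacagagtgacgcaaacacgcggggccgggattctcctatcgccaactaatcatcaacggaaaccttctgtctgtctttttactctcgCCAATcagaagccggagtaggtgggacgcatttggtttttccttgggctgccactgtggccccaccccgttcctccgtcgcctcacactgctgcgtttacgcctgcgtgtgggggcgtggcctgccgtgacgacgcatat
Oaz2: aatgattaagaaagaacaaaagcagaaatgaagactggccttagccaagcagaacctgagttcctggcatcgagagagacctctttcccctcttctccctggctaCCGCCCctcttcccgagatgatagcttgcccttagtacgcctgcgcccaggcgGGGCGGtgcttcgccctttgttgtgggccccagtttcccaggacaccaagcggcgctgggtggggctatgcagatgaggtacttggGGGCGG

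Both strands were searched for the E-box CACGTG, the TATA box TATAAA, the CCAAT box CCAAT and the GC box GGGCGG. The Oaz1 stretch held 1 CCAAT and none of the other motifs, and the Oaz2 stretch held 3 GC boxes and none of the other motifs, with no overlap between matches. Of 32851 RefSeq promoter windows of the same length, 33.8% held CCAAT, 32.7% GGGCGG, 12.4% TATAAA and 6.0% CACGTG. RefSeq windows matched 8 of the 10 genes, and Srm and Azin1 had none. These matches describe letters, not binding.

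In low arginine the RNA of antizyme Oaz1 fell, and that was the 1 gene of the 8 to pass the test. By limma with Benjamini-Hochberg adjustment over all genes tested, 0 of the 8 were called higher and 1 lower. Over all genes 5.19% were called higher and 6.98% lower, 12.2% together (3.62% and 8.05% under 75th percentile centring). At an unadjusted p below 0.05, limma had 1 gene higher (Srm) and 2 lower (Oaz1 and Oaz2), where 27.3% of all genes reached that level in either direction. The groups did not overlap for 2 of the 8, Oaz1 and Oaz2, against 32.2% of all genes. The median change over the 8 genes was -0.06 on the log2 scale and over all genes 0.01, with 4 of the 8 positive and 4 negative. The share of calls among the 8 was thus near the background.

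**Figure D1:**
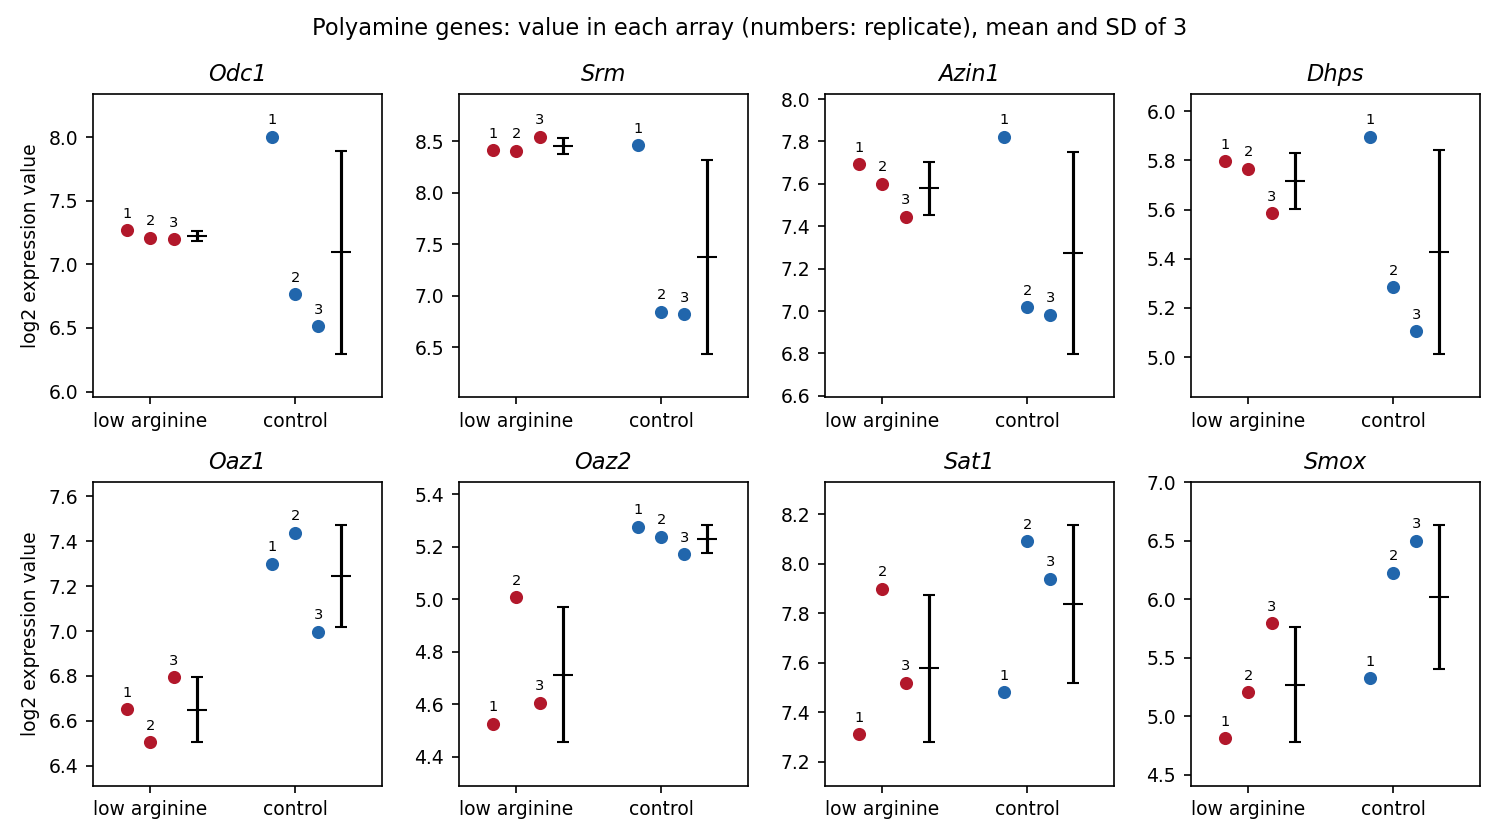
Log2 expression value (y axis) of 8 polyamine genes in 3 low arginine arrays (red) and 3 control arrays (blue), numbered by replicate, with the mean and SD of each group in black. Control replicate 1 lies apart from the other controls for Odc1, Srm, Azin1, Dhps, Sat1 and Smox, and the groups do not overlap for Oaz1 and Oaz2.

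Control replicate 1 stood apart from the other 2 controls over most of these genes, and the changes below are therefore also given without it. It lay nearer to the low arginine mean than to the mean of the other controls for 6 of the 8 genes, as it did for 49.4% of all genes tested. Its distance from the other controls was 1.63 for Srm, 1.36 for Odc1, 0.82 for Azin1 and 0.70 for Dhps on the log2 scale, all upward. The distance was downward for Smox (-1.04) and Sat1 (-0.53), and 0.08 for Oaz1 and 0.07 for Oaz2. Of all genes tested, 0.446% lay at least as far from the other controls in that array as Srm and 1.06% as far as Odc1. The share was 2.98% for Smox, 6.22% for Azin1, 9.33% for Dhps and 16.8% for Sat1. For Oaz1 it was 77.8% and for Oaz2 80.7%. Leaving it out was singled out after these values had been seen, and it leaves 2 control arrays.

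Without control replicate 1, limma called 4 of the 8 genes higher in low arginine (Srm, Odc1, Azin1 and Dhps) and 2 lower (Smox and Oaz1). The background was also higher in that fit, with 11.0% of all genes called higher and 11.5% lower. In that fit the low arginine and control arrays were separate for all 8 polyamine genes, as they were for 50.6% of the genes tested. In each of the other 5 fits that left out 1 array, 0 of the 8 genes were called higher by limma. With all arrays kept but weighted by their fit, which gave weights of 0.239, 5.19 and 0.506 to control replicates 1, 2 and 3, 3 were called higher (Srm, Azin1 and Dhps) and 4 lower, where 37.3% of all genes were called.

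**Figure D2:**
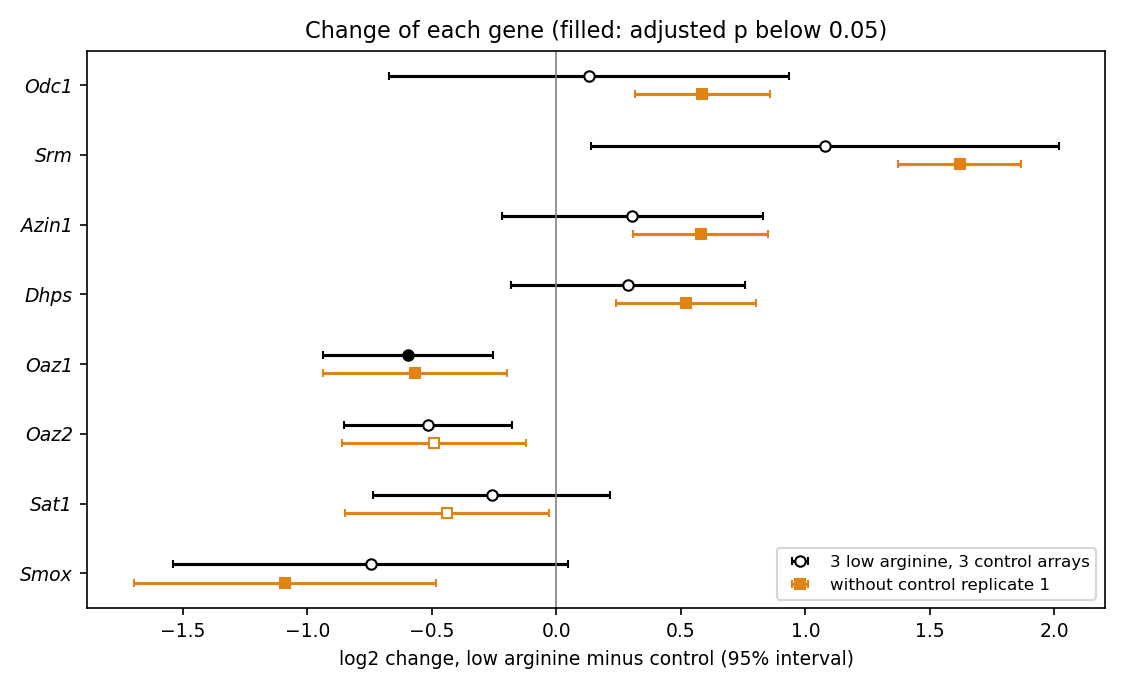
Log2 change, low arginine minus control, of the 8 genes with the 95% interval from limma, with all 6 arrays (black circles) and without control replicate 1 (orange squares), filled where the adjusted p is below 0.05. With all arrays Oaz1 alone is filled, and without control replicate 1 Odc1, Srm, Azin1, Dhps, Oaz1 and Smox are.

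Odc1 (gene ID 18263) encodes ornithine decarboxylase, the enzyme that commits ornithine to polyamines. It stood at 7.27, 7.21 and 7.20 in low arginine replicates 1, 2 and 3, against 8.002, 6.76 and 6.52 in control replicates 1, 2 and 3 (log2 values). The low arginine arrays lay close together and inside the control range, whose top was control replicate 1. The means were 7.23 ± 0.04 in low arginine and 7.09 ± 0.80 in control (SD, n = 3 each), a log2 change of 0.13 with a 95% interval of -0.67 to 0.93 (limma adjusted p = 0.86). Without control replicate 1 the change was 0.59 (0.31 to 0.86, adjusted p = 0.0112). Without control replicate 2 or 3 it was -0.03 (adjusted p = 0.976) or -0.16 (0.825), so the direction for Odc1 was set by which controls were kept.

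Srm (gene ID 20810) encodes spermidine synthase, which turns putrescine into spermidine. Its values were 8.42, 8.41 and 8.54 in the low arginine arrays and 8.46, 6.85 and 6.82 in the controls, in replicate order. Control replicates 2 and 3 were low and control replicate 1 was level with the low arginine arrays. The change of 1.08, or 2.11-fold, was the largest upward one among the 8 genes and did not pass (interval 0.14 to 2.02, limma adjusted p = 0.131). Without control replicate 1 it was 1.62, or 3.08-fold (interval 1.37 to 1.87, adjusted p = 1.45e-04). Srm was positive under each of the 15 alternatives, the lowest change being 0.80 without control replicate 3.

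Azin1 (gene ID 54375) encodes the antizyme inhibitor, a relative of ornithine decarboxylase that has no decarboxylase activity and binds antizyme. In low arginine it stood at 7.69, 7.60 and 7.44, against 7.82, 7.02 and 6.98 in the controls. Again the highest array was control replicate 1 and the lowest were the other controls. The change was 0.31 with all arrays (interval -0.22 to 0.83, limma adjusted p = 0.455) and 0.58 without control replicate 1 (0.31 to 0.85, adjusted p = 0.0114).

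Dhps (gene ID 330817) encodes deoxyhypusine synthase, which moves part of spermidine onto eIF5A. Its values were 5.80, 5.77 and 5.58 in low arginine and 5.90, 5.28 and 5.10 in control. The order of the arrays was that of Azin1. The change was 0.29 with all arrays (interval -0.18 to 0.76, limma adjusted p = 0.431) and 0.52 without control replicate 1 (0.24 to 0.80, adjusted p = 0.0199).

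Oaz1 (gene ID 18245), the main antizyme, went the other way. It stood at 6.65, 6.50 and 6.79 in low arginine, against 7.30, 7.44 and 6.997 in control. Every low arginine array lay below every control array, and control replicate 1 lay between the other controls. Oaz1 fell by 0.60 on the log2 scale, to 0.662 of the control level (interval -0.94 to -0.26, limma adjusted p = 0.0383). In bulk RNA, fewer cells of a type and less RNA per cell cannot be told apart. The call held without control replicate 1 (change -0.57, adjusted p = 0.0392) and without control replicate 3 (-0.72, 0.0273). It did not hold without control replicate 2 (adjusted p = 0.136) or without low arginine replicate 1 (0.108), 2 (0.142) or 3 (0.0833), though the change stayed between -0.67 and -0.50 in those fits. The call was also lost with the replicate number added to the fit as a block (-0.60, limma adjusted p = 0.0749). In all, the Oaz1 call was lost in 5 of the 15 alternatives. A further probe set is shared between Oaz1 and the pseudogene Oaz1-ps and was not used, and cross-hybridisation was not tested.

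Oaz2 (gene ID 18247) encodes the second widely expressed antizyme. Its values were 4.53, 5.01 and 4.61 in low arginine and 5.28, 5.24 and 5.17 in control. The control arrays lay close together and above every low arginine array. The change of -0.52 came near the threshold without passing it (interval -0.85 to -0.18, limma adjusted p = 0.0583), and without control replicate 1 it was -0.49 (0.0625). It passed without low arginine replicate 2 (-0.66, adjusted p = 0.0457). The dimmer probe set of Oaz2 stood at 4.04, 4.10 and 3.39 in low arginine, against 3.70, 4.62 and 4.50 in control, and there the groups overlapped (difference -0.44). With both probe sets averaged the change was -0.48 (adjusted p = 0.13).

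The breakdown enzymes among the measured polyamine genes, Sat1 and Smox, had lower means in low arginine. Neither passed in the unweighted fit on group alone with all arrays. Sat1 (gene ID 20229), the acetyltransferase that marks spermidine and spermine for export or oxidation, stood at 7.31, 7.90 and 7.52 in low arginine and at 7.48, 8.09 and 7.94 in control. Its groups overlapped, and replicate 1 was the lowest array of each group. The change was -0.26 with all arrays (interval -0.74 to 0.22, limma adjusted p = 0.486) and -0.44 without control replicate 1 (-0.85 to -0.03, adjusted p = 0.119). With array weights, where 37.3% of all genes were called and control replicate 2 had a weight of 5.19, Sat1 passed at -0.44 (adjusted p = 0.044).

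Smox (gene ID 228608), the spermine oxidase, turns spermine back into spermidine. It stood at 4.81, 5.21 and 5.79 in low arginine, against 5.33, 6.23 and 6.50 in control. Within each group replicate 1 was again lowest, and the highest low arginine array lay above control replicate 1. The change was -0.75 with all arrays (interval -1.54 to 0.05, limma adjusted p = 0.21) and -1.09 without control replicate 1 (-1.70 to -0.48, adjusted p = 0.022). With array weights, where 37.3% of all genes were called, Smox passed as well, at -0.94 (adjusted p = 0.0081). It also passed with the replicate number added to the unweighted fit as a block, at -0.75 (limma adjusted p = 0.0285). In that fit 10.6% of all genes were called, and Sat1 did not pass (-0.26, adjusted p = 0.233).

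**Figure D3:**
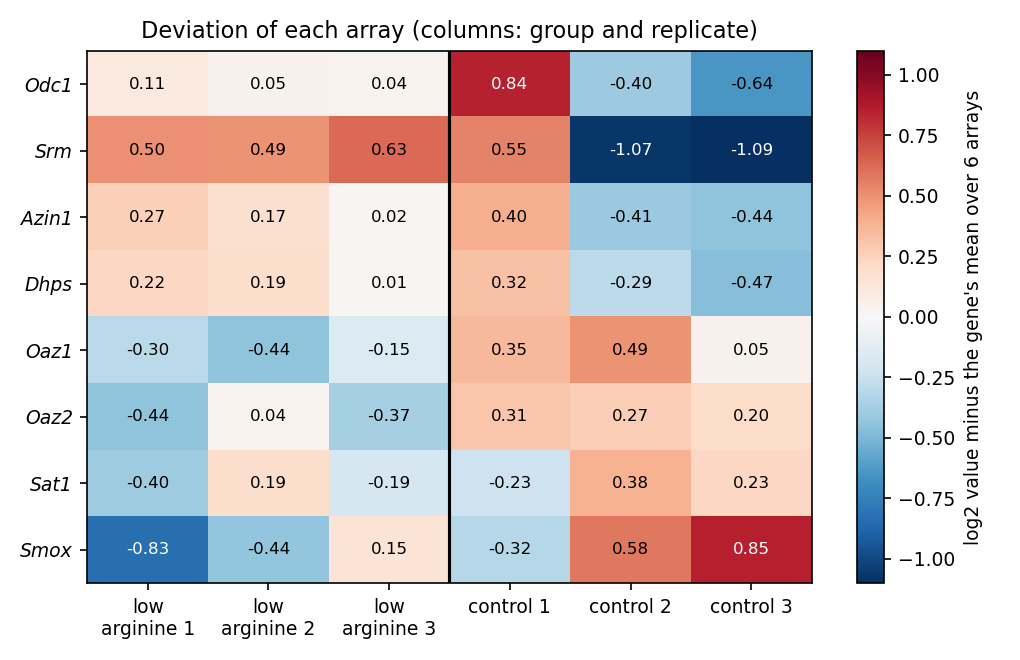
Log2 value of each array minus the gene's mean over 6 arrays (colour and printed number), with the 8 genes as rows and the arrays as columns, low arginine left of the line and control right of it. Control replicate 1 is red with the low arginine arrays for Srm, Azin1 and Dhps and blue with most of them for Sat1 and Smox, while all 3 controls are above the mean for Oaz1 and Oaz2.

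Ornithine decarboxylase and its inhibitor were also set against the antizymes within each array, as the difference of their log2 values relative to the control mean. Azin1 minus Oaz1 was 1.01, 1.07 and 0.62 in low arginine, against 0.49, -0.45 and -0.04 in control. Every low arginine array lay above every control array, by a mean of 0.90 (exact permutation test, two-sided, p = 0.1, the smallest that 3 arrays against 3 allow, adjusted p = 0.2 over the 4 pairs). Azin1 minus Oaz2 was 1.12, 0.55 and 0.79 in low arginine, against 0.50, -0.27 and -0.24 in control, a mean difference of 0.82 (exact p = 0.1, adjusted p = 0.2). Oaz1 and Oaz2 each kept the groups apart on their own, as 32.2% of all genes did, while the groups overlapped for Azin1 alone. How many other gene pairs keep the groups apart was not computed, and the part of Azin1 in these differences was not tested. For Odc1 the groups overlapped through control replicate 1. Odc1 minus Oaz1 differed by 0.73 and Odc1 minus Oaz2 by 0.65 (exact p = 0.3 and adjusted p = 0.3 for both). Without control replicate 1 the mean differences were 1.15 for Odc1 minus Oaz1, 1.08 for Odc1 minus Oaz2, 1.15 for Azin1 minus Oaz1 and 1.07 for Azin1 minus Oaz2. Odc1 minus Oaz1 was 0.47 without control replicate 2, and Odc1 minus Oaz2 was 0.39 without control replicate 3. None of the 4 pairs passed, and with 3 arrays against 3 none could.

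**Figure D4:**
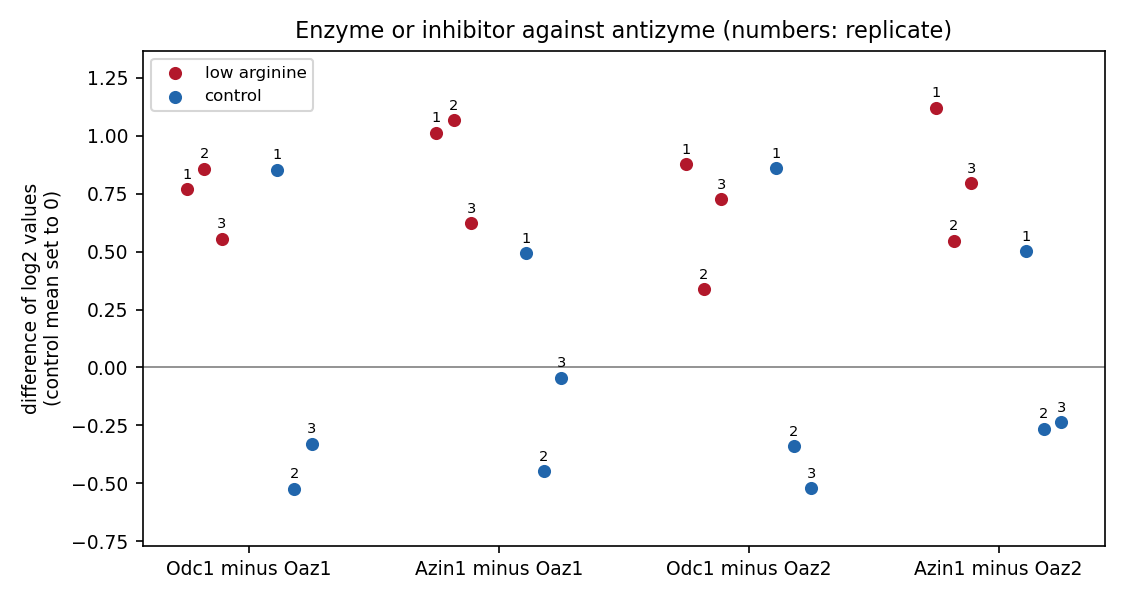
Difference of 2 log2 values per array (y axis, control mean set to 0) for the 4 pairs of ornithine decarboxylase or antizyme inhibitor against an antizyme, low arginine in red and control in blue, numbered by replicate. For both Azin1 pairs every low arginine point lies above every control point, and for both Odc1 pairs control replicate 1 lies among the low arginine points.

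By Euclidean distance over the 6 arrays, after centring each gene on its mean, the tested genes nearest to Odc1 were Rpp25 (distance 0.10 on the log2 scale), Tomm40 (0.13) and Psmd7 (0.18). Nearest to Oaz1 were Tgds (0.15), Stx2 (0.18) and Tmem258 (0.19), with changes of -0.58, -0.65 and -0.53. These are likenesses across 6 arrays chosen among all genes tested, given as a description.

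Around the pathway, 6 lists of other genes held 4 calls among 36 tested genes (11.1%), near the 12.2% of all genes. Among 7 relatives of the enzymes and antizymes, 5 were measured, and Amd2 and Paox were not matched to a measured gene. Oaz3, Sat2 and Satl1 were under the dim limit. Of the 2 tested limma called 0 (0 at an unadjusted p below 0.05). Azin2, a second antizyme inhibitor, had a change of -0.26 (adjusted p = 0.338) and of -0.12 without control replicate 1 (0.559). Of 3 genes of eIF5A and its hypusination 0 were called by limma (0 at an unadjusted p below 0.05). Eif5a itself stood at 7.87 ± 0.06 in low arginine and 7.86 ± 0.27 in control (SD, n = 3 each; limma adjusted p = 0.973). Dohh, which completes hypusine, had a change of 0.30 (adjusted p = 0.258) and of 0.44 without control replicate 1 (0.0385). With that array left out, Dhps and Dohh were both called higher, where 11.0% of all genes were, and with all arrays neither passed. Eif5a had a change of 0.15 without that array (adjusted p = 0.414).

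Of 4 tested genes linked to polyamine transport, 1 rose and 0 fell. Slc3a2, the heavy chain that partners amino acid carriers and has been linked to polyamine movement, was at 9.97, 9.97 and 10.13 in low arginine, against 9.24, 9.17 and 9.05 in control. The groups were well apart, with a change of 0.87 (limma adjusted p = 0.00474) that passed under each of the 15 alternatives. Atp13a3, a P5B-type ATPase that carries polyamines, had a change of 0.12 (adjusted p = 0.485), and its lysosomal relative Atp13a2 one of -0.07 (0.764). The changes without control replicate 1 were 0.91 for Slc3a2 (adjusted p = 0.00177), 0.15 for Atp13a3 (0.355) and -0.03 for Atp13a2 (0.904).

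The supply of ornithine showed no call by limma among 9 tested genes. At an unadjusted p below 0.05 there were 2, where 27.3% of all genes reached that level. Of the arginases, which make ornithine, Arg1 stood near the dim limit of 2.48 and Arg2 at the 50th percentile of mean level. The Arg2 groups did not overlap, as was so for 32.2% of all genes. Arg1 was 2.65 ± 0.07 in low arginine and 2.69 ± 0.11 in control, and Arg2 was 3.26 ± 0.23 in low arginine and 2.97 ± 0.07 in control (SD, n = 3 each; limma adjusted p = 0.852 and 0.229). The largest change in this list was that of Asl, argininosuccinate lyase, at -0.59 (adjusted p = 0.0657). Slc7a1, which brings arginine into the cell, rose by 1.04 (adjusted p = 0.00334) and passed under each of the 15 alternatives. Without control replicate 1 the changes were 1.11 for Slc7a1 (adjusted p = 7.56e-04), -0.45 for Asl (0.0726), 0.28 for Arg2 (0.231) and -0.05 for Arg1 (0.826).

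The other substrate of spermidine synthesis comes from S-adenosylmethionine. Of 8 tested genes of its supply and of methionine salvage, 0 rose and 1 fell. Ahcy, the hydrolase that clears S-adenosylhomocysteine, stood at 7.56, 7.16 and 7.35 in low arginine and at 8.82, 8.94 and 8.37 in control. No low arginine array came near a control array, the change being -1.35 (limma adjusted p = 0.00536), and the call held under each of the 15 alternatives. Mtap, which recycles the methylthioadenosine that the synthases release, had a change of 0.07 (adjusted p = 0.801). Leaving out control replicate 1 gave -1.30 for Ahcy (adjusted p = 0.00357) and 0.10 for Mtap (0.673).

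Odc1 is a textbook target of the transcription factor Myc, so Myc and its partners were listed as well, and of 10 tested 1 rose and 1 fell. Myc stood at 8.97, 8.91 and 9.01 in low arginine and 8.78, 8.86 and 8.54 in control. Its groups did not overlap, as was so for 32.2% of all genes, and the change of 0.24 did not pass (limma adjusted p = 0.258). Unlike Odc1, Myc had control replicate 1 between the other controls. Mxi1, a repressor that competes for the same partner, fell by 1.40 (adjusted p = 0.00691) and passed under each of the 15 alternatives. Mga, a large repressor of the same network, rose by 0.46 (adjusted p = 0.0318), a call lost in 6 of the 15 alternatives, among them those without low arginine replicate 1, 2 or 3 or control replicate 2 (highest adjusted p = 0.118). When control replicate 1 was left out the changes were 0.26 for Myc (adjusted p = 0.194), -1.59 for Mxi1 (6.91e-04) and 0.40 for Mga (0.0276).

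**Figure D5:**
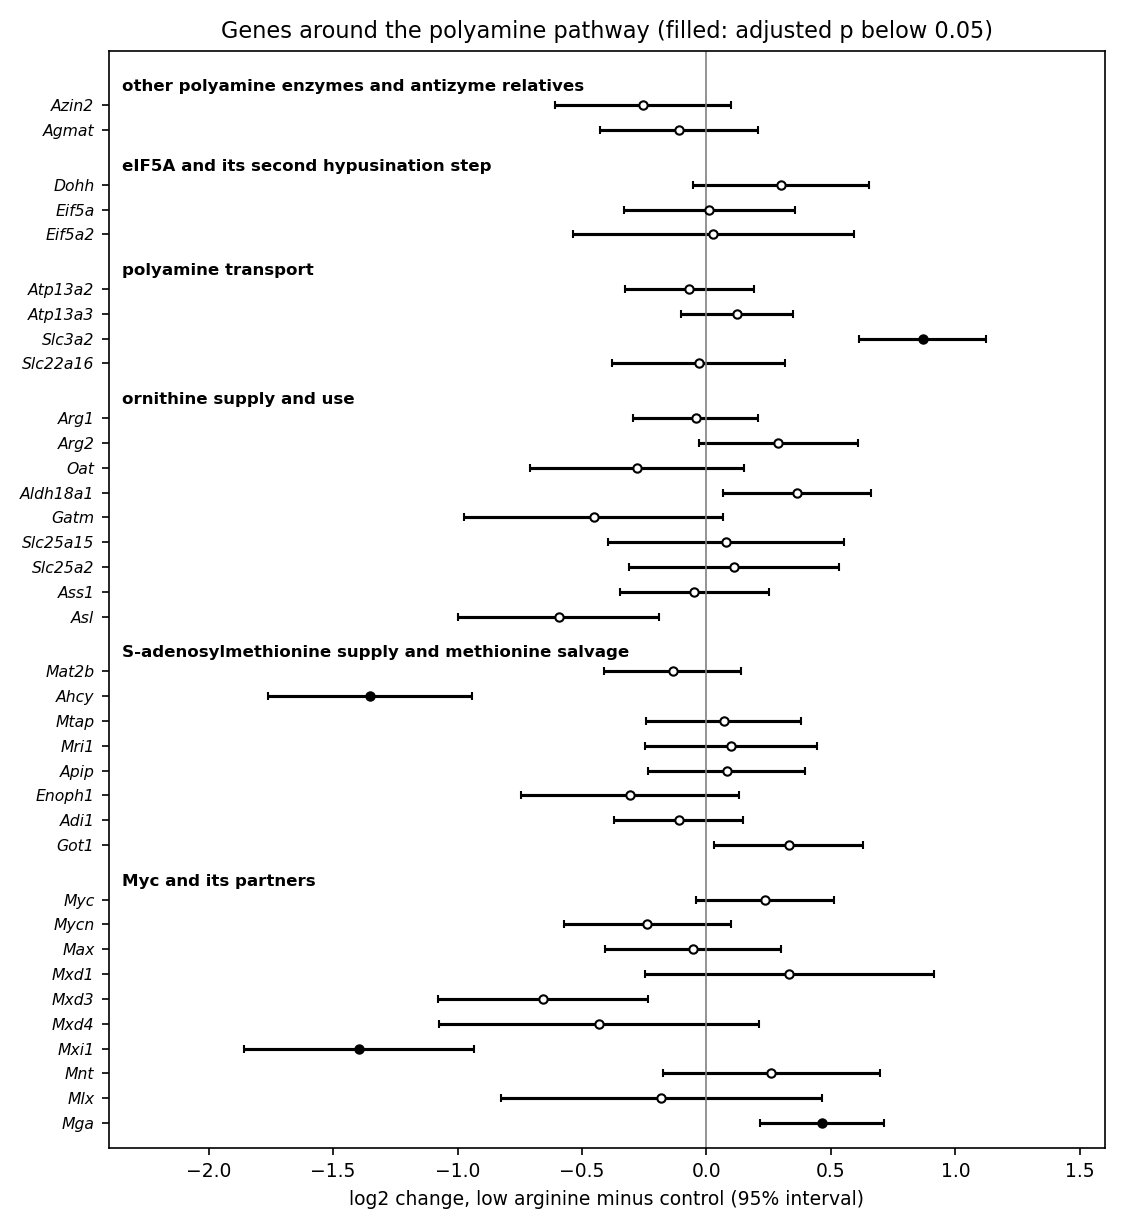
Log2 change, low arginine minus control, with 95% intervals from limma for the tested genes of 6 lists around the polyamine pathway, filled where the adjusted p is below 0.05. Slc3a2 and Mga are filled on the right, and Ahcy and Mxi1 on the left.

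Proliferation genes moved with the treatment. All 7 tested genes of that list were called lower by limma (median change -2.34), where 6.98% of all genes were. They were Mki67, Top2a, Cdk1, Ccna2, Bub1, Aurkb and Plk1. Mki67, a marker of cycling cells, was 8.38 ± 0.78 in low arginine and 10.0 ± 0.04 in control (SD, n = 3 each; limma adjusted p = 0.0228). The Mki67 call was lost without low arginine replicate 2 or 3 or control replicate 2 or 3 (highest adjusted p = 0.0967), and of the 7 genes Bub1 alone passed under each of the 15 alternatives. All 7 were also called lower without control replicate 1 (median change -2.22), Mki67 at -1.64 (adjusted p = 0.0199). The mean log2 level of this list was 7.35, 6.12 and 5.73 in low arginine replicates 1, 2 and 3 and 8.60, 8.58 and 8.59 in the controls. The 3 controls were alike in that mean, and low arginine replicate 1 was the highest of its group. T cell genes were high in both groups, Cd3e at 10.9 in low arginine and 10.8 in control and Cd4 at 10.1 in low arginine and 10.3 in control, and 7 of 8 T cell markers, summed on the linear scale, came to 5806 to 6155 in low arginine and 6216 to 6513 in control. On the same linear scale, 6 of 7 B cell markers measured 35.1 to 39.1 in low arginine and 35.8 to 39.5 in control, and 8 of 8 macrophage and monocyte markers 84.9 to 88.0 in low arginine and 69.0 to 101 in control. Ms4a1, Ebf1, Lyz2, Adgre1, Cd14, C1qb, Siglech, Klrb1c and Ncr1 were under the dim limit, and no tested gene of these marker lists was called by limma. Dendritic cell markers (5 of 6) summed to 33.4 to 36.9 in low arginine and 30.1 to 34.8 in control, and CD8 and NK markers (6 of 6) to 133 to 172 in low arginine and 156 to 206 in control. Members of the CD8 and NK list went apart, with changes of -0.66 for Cd8b1, -0.61 for Cd8a, -0.61 for Klrd1 and 0.79 for Eomes. Of these 4 tested genes 3 had an unadjusted limma p below 0.05, where 27.3% of all genes did. Over the CD8 and NK list the mean log2 level of control replicate 1 was 3.74, against 4.07 and 4.08 in the other controls and 3.70 to 3.82 in low arginine. The part of proliferation and of these markers in the polyamine results was not tested.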

How the data were processed

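The deposited values are log2 expression values per probe set, 1 array per sample, as the authors made them. The sorted values of any 2 arrays differ by at most 0.199, so no further scaling was applied. Per the submitters' processing notes oligo was used. Neither its version nor how background was corrected or arrays were normalized was stated, and log base 2 was taken from the range (0.956 to 12.4). There were no detection calls, and the number of arrays limits the precision.

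Of 41345 probe sets, 23521 carried 1 symbol, 1814 several and 16010 none. The brightest by mean over 6 arrays stood for its gene, and the dimmest share of 0.333 (7393 of 22180 genes, limit 2.48) was left out of the test, which took all 14787 other genes.

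The group difference was fitted in R 4.3.3 by limma 3.58.1 (lmFit, eBayes, group only, two-sided, threshold 0.05 on the Benjamini-Hochberg adjusted p over all genes; 4 residual and 3.69 prior degrees of freedom). Intervals are 95% intervals of limma's moderated estimate. The fit was tested on simulated data with independent noise, no outlying array and no pairing. That test therefore cannot speak to control replicate 1 or to shared replicate numbers. Figures used matplotlib 3.10.9. Of 102 list entries 90 were matched to a measured gene.

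All 8 measured polyamine genes were named whatever their result, with every called gene of the pathway lists, or the gene of largest change where none was called, and Arg1, Arg2, Slc7a1, Eif5a, Myc and Mki67. Any other gene was named with its values in view. The genes and lists were chosen with earlier results of these data known. The alternatives were 3 further normalizations, 2 other filters, averaged probe sets, a trended robust prior, a block for the replicate number, array weights, and fits that lacked 1 array each.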

Additional observations from a re-analysis of the deposited data

How the results depend on the processing

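Of 120 changes of single polyamine genes over 15 alternatives, 100 kept their direction and their side of the threshold. The number called higher was 0 with all arrays, 3 with array weights (Srm, Azin1 and Dhps) and 0 to 4 when 1 array was left out. The number called lower was 1, 4 with array weights (Oaz1, Oaz2, Sat1 and Smox) and 0 to 2 when 1 array was left out. Array weights gave control replicate 1 a weight of 0.239 and control replicate 2 one of 5.19. The change of Odc1 ran from -0.16 to 0.59 over the arrays left out, reversing without control replicate 2 (-0.03) or 3 (-0.16). Among all genes 12.2% were called, 37.3% with array weights, 7.88% with no filter on dim genes and 3.38% to 22.5% with 1 array left out. Quantile normalization, centring on the median or the 75th percentile, other filters and the trended prior changed no call among the 8 genes. With the replicate number as a block Oaz1 changed by -0.60 (adjusted p = 0.0749) and did not pass, while Smox passed (-0.75, adjusted p = 0.0285). Deviations of same-numbered arrays correlated at 0.121, 0.0588 and 0.141 over genes, and those of unlike-numbered arrays at -0.134 to 0.0426. Each array correlated best with its own number. The labels do not say whether same-numbered arrays share mice. The numbers were left out of the main fit, and whether they are pairs was not settled. With 1 array left out the difference between Odc1 and Oaz1 ran from 0.47 to 1.15, between Odc1 and Oaz2 from 0.39 to 1.08, between Azin1 and Oaz1 from 0.68 to 1.15 and between Azin1 and Oaz2 from 0.67 to 1.07, all positive.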
